A study of Mus musculus with 12 samples.

Results

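The genes described here are the NF-κB subunits and their inhibitors, 10 of the 55335 genes in the table of read counts, taken as the rows whose symbol is *Nfkb1*, *Nfkb2*, *Rel*, *Rela*, *Relb*, *Nfkbia*, *Nfkbib*, *Nfkbie*, *Nfkbiz* or *Bcl3*. In GRCm38 the genes lie on chromosomes 3 (*Nfkb1*), 7 (*Relb*, *Nfkbib* and *Bcl3*), 11 (*Rel*), 12 (*Nfkbia*), 16 (*Nfkbiz*, 55811375 to 55838899, minus strand), 17 (*Nfkbie*) and 19 (*Nfkb2* and *Rela*), and all are annotated as protein-coding. Each symbol was listed in 1 row, and all 10 passed the filter on low counts in every comparison. The study asked what the receptor for thyrotropin (TSH), *Tshr*, does in macrophages. It sequenced mRNA from 12 mouse samples in 4 groups of 3. Bone-marrow-derived macrophages (BMDMs) came from male *Tshr* MKO mice, in which floxed *Tshr* is deleted by a Cre recombinase under the *Lyz2* promoter of myeloid cells, and from *Tshr* f/f littermates, which carry the floxed alleles. The age of these mice is 6 weeks in the sample records and 6 to 8 weeks in the methods. The BMDMs were grown for 7 days with M-CSF at 10 ng/mL and then given TSH at 1 ng/mL for 24 hours, so that no BMDM library is without TSH. Livers came from male *Tshr* f/f and *Tshr* MKO mice put on a high-fat diet at 6 weeks of age for 9 weeks, fasted for 8 hours and given insulin at 1.5 U/kg 5 minutes before collection, so that no liver is without the diet or the insulin.

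NF-κB is a family of dimeric transcription factors built from RELA (p65), RELB, c-REL, p50 and p52, the last 2 being cut from the precursors that *Nfkb1* and *Nfkb2* encode. In resting cells the classical inhibitors IκBα, IκBβ and IκBε, the products of *Nfkbia*, *Nfkbib* and *Nfkbie*, hold the dimers in the cytoplasm until the IKK kinase complex marks them for destruction. The atypical members IκBζ (*Nfkbiz*) and BCL-3 act in the nucleus on p50 or p52 dimers, and in macrophages several genes of the family are themselves transcribed in response to NF-κB.

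Because several members are known to be NF-κB targets, their promoters were searched for the NF-κB consensus decamer on both strands, in the 250 bases before and 50 bases after each RefSeq start site (GRCm38.p6). The table held promoters for 7 of the 10 genes (not *Nfkb1*, *Relb* or *Nfkbiz*). The consensus was in at least 1 promoter of 5 of the 7 (*Nfkb2*, *Rel*, *Nfkbia*, *Nfkbie* and *Bcl3*, but not *Rela* or *Nfkbib*), against 9.55% of the 27025 genes and 8.46% of the 32851 promoters of the table. The matches describe these letters and do not show that a factor was bound. The stretches that hold the matches in 4 of the 5 genes are shown 5′ to 3′ on the strand of the gene, with the matching bases in capitals. For *Nfkbia* the stretch is chr12:55492658-55492767 on the minus strand, from 120 to 11 bases before the start.
Nfkbia: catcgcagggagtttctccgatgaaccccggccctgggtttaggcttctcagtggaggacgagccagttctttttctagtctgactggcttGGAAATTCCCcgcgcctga
For *Nfkbie* it is chr17:45555580-45555689 on the plus strand, over the same distance.
Nfkbie: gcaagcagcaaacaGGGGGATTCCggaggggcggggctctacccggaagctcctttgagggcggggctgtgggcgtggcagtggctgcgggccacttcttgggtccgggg
For *Rel* it is chr11:23770980-23771089 on the minus strand, and its capitals hold a pair of overlapping matches.
Rel: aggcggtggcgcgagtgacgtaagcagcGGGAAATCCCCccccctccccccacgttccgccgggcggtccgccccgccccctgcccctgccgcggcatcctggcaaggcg
*Nfkb2* has 3 RefSeq promoters, all inside the longer GENCODE M21 gene. Only the matches of the promoter farthest upstream are shown, although the other 2 promoters hold matches as well. Of its 3 matches the overlapping pair lies in chr19:46304694-46304712 and the remaining match in chr19:46304722-46304736, both on the plus strand.
Nfkb2 distal: tcacGGGAATTCCCCccct
Nfkb2 proximal: gaaaGGGGCTTTCCc

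The BMDM libraries held 33683981 to 40954211 counts and the liver libraries 28962878 to 40420513. The 10 genes took 0.0685 to 0.368% of the counts of a BMDM library and 0.0181 to 0.0242% of those of a liver library. Levels are given as CPM, a library's counts scaled to the same total with TMM factors over the 12 libraries, and RPKM values were those CPM per kilobase of the summed exon length of the gene in GENCODE M21. That length counts every annotated exon of a gene, from 1610 bases for *Nfkbia* to 12061 for *Nfkb1*. It can exceed the length of the transcript expressed, so orders, shares and ratios between genes rest on it. *Tshr* was at 0, 0 and 2 counts in *Tshr* f/f BMDMs, at 0, 0 and 5 in *Tshr* MKO BMDMs and at 0 in all 6 livers, so its counts check no genotype label. In a listing of receptor counts in liver that accompanies the study, every liver library stands under the heading of the other genotype. The livers are therefore named by the labels of the libraries. If the listing is right, each genotype difference within liver turns, and the comparisons of liver with BMDMs are also given with the liver labels exchanged, an alternative added after the data had been seen. *Tshr* f/f BMDM replicate 3 stood apart from the others, with a TMM factor of 0.738 among the BMDM libraries against 0.993 to 1.114 in the other 5. All 8 macrophage markers were above 3 counts in BMDMs, with a summed level of 11200 to 13200 CPM in *Tshr* f/f and 14800 to 22200 CPM in *Tshr* MKO BMDMs. Without *Lyz2*, the locus that carries Cre, the sums of the other 7 overlapped, at 4640 to 6730 against 4130 to 5510 CPM, and 4 of the 8 markers had a negative log2 fold change. The 6 hepatocyte markers were at or under 3 counts there and at 99900 to 134000 CPM in liver. The methods give n = 3 mice per group for both tissues, and the p-values measure the spread between these samples. *Tshr* MKO BMDM replicates 1 and 2 lay closest, with a chi-square per degree of freedom of 13.4 between their counts. The other pairs of that group were at 104.1 and 119.4, and pairs within the other groups at 45.9 or more. Why this pair was so close was not tested.

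*Tshr* MKO BMDMs had lower mean levels of all 10 genes than *Tshr* f/f BMDMs, from 1.92-fold for *Rel* to 9.00-fold for *Nfkbiz*, but none passed the test at an adjusted p under 0.05. The adjusted p-values lay between 0.218 and 0.39 (edgeR, quasi-likelihood test, Benjamini–Hochberg over 15372 genes), and 0 of the 15372 genes passed (0.0%), although 1567 were lower and 1189 higher at an unadjusted p under 0.05 and DESeq2 called 696 lower and 520 higher. At an unadjusted p under 0.05, 9 of the 10 genes were lower, all but *Rel*, against 10.2% of all genes tested. The same 9 were at least 2-fold lower, the thresholds of the study, against 5.52% of all genes. The median log2 fold change of the 10 genes was −1.71, against 0.01 over all genes tested. With DESeq2, 7 of the 10 were lower at an adjusted p under 0.05 (*Nfkb1*, *Nfkb2*, *Relb*, *Nfkbia*, *Nfkbib*, *Nfkbie* and *Nfkbiz*), against 4.54% of the 15336 genes that it adjusted. In these bulk samples, fewer cells of a type and less RNA per cell cannot be told apart.

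**Figure D1:**
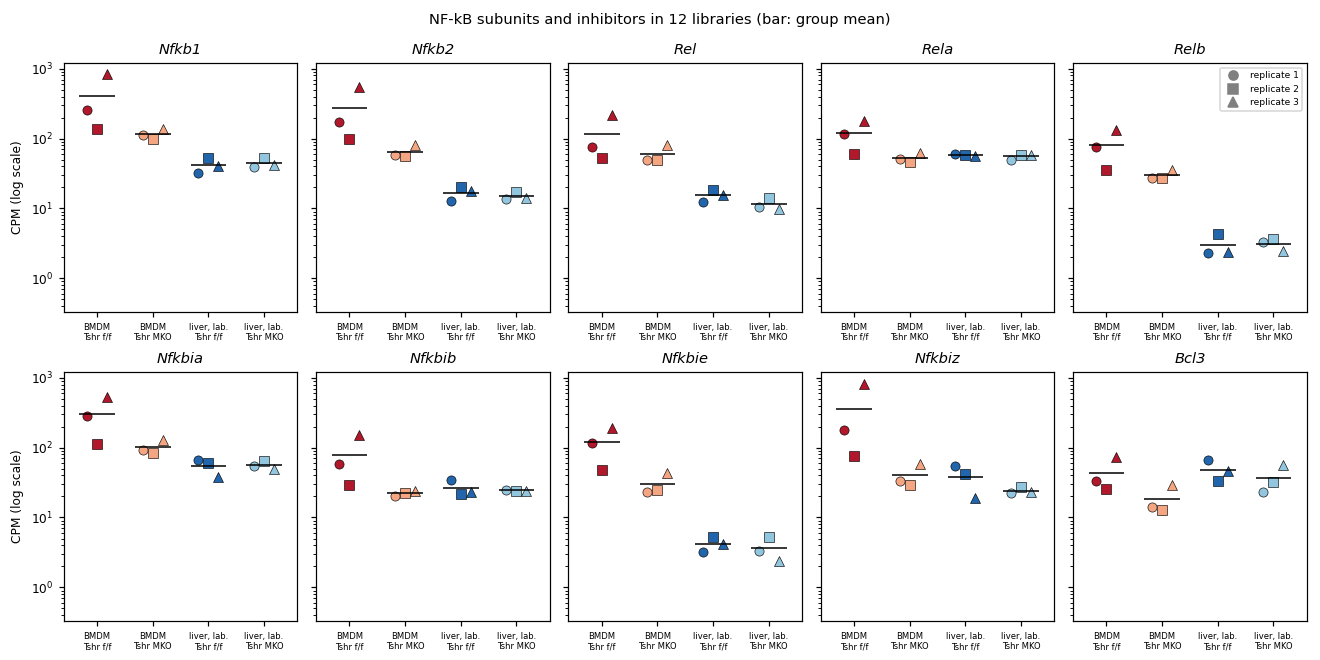
TMM-scaled CPM (log axis) of each of the 10 genes in the 12 libraries, with a point per library, a marker shape per replicate number and a bar at the group mean; "lab." means as labelled. *Tshr* f/f BMDM replicate 3 is the highest point in every panel, and the livers lie below all BMDMs for *Nfkb1*, *Nfkb2*, *Rel*, *Relb*, *Nfkbia* and *Nfkbie*.

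Among the subunits, *Nfkb1*, the gene of the p105 precursor of p50, was at 259, 139 and 829.7 CPM in the *Tshr* f/f libraries, against 114, 100.1 and 136 CPM in the *Tshr* MKO libraries. The groups did not overlap, although *Tshr* f/f replicate 2 lay just above the highest *Tshr* MKO library. The log2 fold change was −1.82 (SE 0.641, edgeR adjusted p = 0.249), and it was −0.78 (SE 0.283, adjusted p = 0.288) when *Tshr* f/f replicate 3 was left out. *Nfkb2*, the gene of the p100 precursor of p52 in the alternative pathway, was at 172, 98.5 and 543.9 CPM against 57.5, 55.5 and 79.7 CPM. Here too every *Tshr* f/f library was above every *Tshr* MKO library. Its log2 fold change was −2.09 (SE 0.631, edgeR adjusted p = 0.225), the largest among the subunits, and −1.09 (SE 0.276, adjusted p = 0.181) without *Tshr* f/f replicate 3.

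*Rela*, the p65 subunit of the classical dimer, was at 114, 60.6 and 180.1 CPM in the *Tshr* f/f libraries, against 50.6, 46.1 and 61.7 CPM in the *Tshr* MKO libraries. The groups overlapped, since *Tshr* MKO replicate 3 was above *Tshr* f/f replicate 2. The log2 fold change was −1.17 (SE 0.381, edgeR adjusted p = 0.234). *Relb*, the partner of p52, was at 76.2, 35.5 and 132 CPM against 26.9, 27.1 and 35.9 CPM, with the same pair of libraries just crossing. Its log2 fold change was −1.44 (SE 0.449, edgeR adjusted p = 0.228). *Rel*, which encodes c-REL, was at 75.7, 52.8 and 216 CPM against 49.6, 48.8 and 82.0 CPM. *Tshr* MKO replicate 3 was above 2 of the *Tshr* f/f libraries, and the log2 difference of −0.94 (SE 0.544, edgeR adjusted p = 0.39) came down to −0.11 (SE 0.278, adjusted p = 0.894) without *Tshr* f/f replicate 3.

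Of the classical inhibitors, *Nfkbia* was at 280.0, 112 and 533 CPM in the *Tshr* f/f libraries, against 93.0, 83.8 and 129 CPM in the *Tshr* MKO libraries. *Tshr* f/f replicate 2 fell within the *Tshr* MKO range. The log2 fold change of this gene, which encodes the IκB that is resynthesised after NF-κB activation, was −1.60 (SE 0.542, edgeR adjusted p = 0.239). *Nfkbib* was at 59.3, 29.6 and 150.2 CPM against 20.1, 22.6 and 23.9 CPM, and *Nfkbie* at 118.5, 48.3 and 191 CPM against 23.5, 25.2 and 43.1 CPM. For both genes the groups were apart, with *Tshr* f/f replicate 2 nearest to the *Tshr* MKO libraries. The log2 fold changes were −1.85 (SE 0.559, edgeR adjusted p = 0.225) for *Nfkbib* and −1.97 (SE 0.515, edgeR adjusted p = 0.218) for *Nfkbie*. Without *Tshr* f/f replicate 3, *Nfkbie* remained 2.76-fold lower (log2 −1.47, SE 0.439, edgeR adjusted p = 0.229).

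The atypical *Nfkbiz*, whose product is needed in macrophages for secondary response genes such as *Il6*, differed most. It was at 177.5, 77.1 and 826.1 CPM in the *Tshr* f/f libraries, against 33.1, 29.0 and 58.6 CPM in the *Tshr* MKO libraries. The groups did not overlap, and only 0.787% of the 15372 genes had a lower log2 fold change than its −3.17 (SE 0.904, edgeR adjusted p = 0.222). Leaving out *Tshr* f/f replicate 3, the difference was 3.21-fold (log2 −1.68, SE 0.442, edgeR adjusted p = 0.188). *Bcl3*, whose product joins p50 and p52 dimers at DNA, was at 33.3, 25.2 and 72.7 CPM against 14.2, 12.97 and 28.8 CPM. *Tshr* MKO replicate 3 was above *Tshr* f/f replicate 2, and the log2 fold change was −1.24 (SE 0.485, edgeR adjusted p = 0.264). In all, *Nfkb1*, *Nfkb2*, *Nfkbib*, *Nfkbie* and *Nfkbiz*, 5 of the 10, had every *Tshr* f/f library above every *Tshr* MKO library, against 12.8% of all genes tested.

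The 10 genes moved together between libraries within the *Tshr* f/f group. All 10 were highest in replicate 3 and lowest in replicate 2, and the highest level was between 2.89 times (*Bcl3*) and 10.7 times (*Nfkbiz*) the lowest, with a median of 4.43. In *Tshr* MKO BMDMs the same ratio was between 1.19 (*Nfkbib*) and 2.22 (*Bcl3*), with a median of 1.49, and all 10 were again highest in replicate 3. How many of all genes had the same orders was not counted, so these orders are not set apart as a trait of the 10. Before TMM scaling the 10 genes took 0.184, 0.104 and 0.368% of the counts in *Tshr* f/f replicates 1, 2 and 3. Without *Tshr* f/f replicate 3, 7 of the 10 were lower at an unadjusted p under 0.05 (*Nfkb1*, *Nfkb2*, *Rela*, *Relb*, *Nfkbib*, *Nfkbie* and *Nfkbiz*), against 7.40% of all genes tested, and the median log2 fold change was −0.94. That count was 3 without *Tshr* MKO replicate 2, 4 without *Tshr* MKO replicate 1 and 10 without *Tshr* f/f replicate 2. In these fits 820 of 15859, 731 of 15884 and 2299 of 15654 genes tested were lower.

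**Figure D2:**
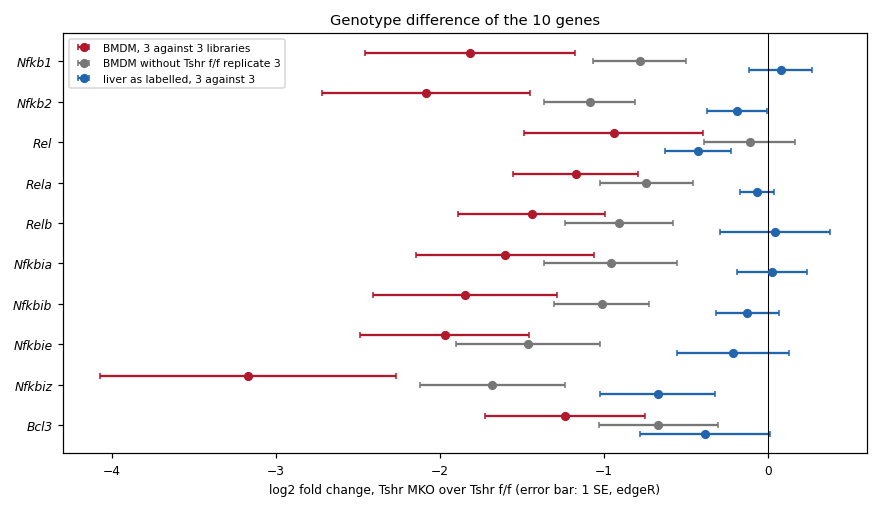
Log2 fold change of *Tshr* MKO over *Tshr* f/f for the 10 genes, with error bars of 1 SE (edgeR), in BMDMs (red), in BMDMs without *Tshr* f/f replicate 3 (grey) and in livers as labelled (blue). In BMDMs the points run from −0.94 for *Rel* to −3.17 for *Nfkbiz*, move towards 0 without *Tshr* f/f replicate 3, and in liver lie between −0.68 and 0.08.

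In liver, the 10 genes differed less between the labelled groups. Their log2 fold changes ran from −0.68 for *Nfkbiz* to 0.08 for *Nfkb1*, with a median of −0.16 against −0.01 over all 15062 genes tested. None of the 10 was at an adjusted p under 0.05 (0.507 to 0.986, edgeR) or at an unadjusted p under 0.05, where 10.5% of all genes tested were. With DESeq2, 1 of the 10, *Nfkbiz*, was at an unadjusted p under 0.05 and none at an adjusted p under 0.05. Leaving out a liver brought 1 gene to an unadjusted p under 0.05 at a time, namely *Rel* without *Tshr* MKO replicate 2 or *Tshr* f/f replicate 1, *Nfkbiz* without *Tshr* f/f replicate 3 and *Bcl3* without *Tshr* MKO replicate 3. For every gene the 2 liver groups overlapped, while 7.52% of all genes tested were lower in each liver labelled *Tshr* MKO than in each liver labelled *Tshr* f/f.

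*Rela* was the steadiest of the subunits in liver, at 59.5, 57.5 and 55.9 CPM where the label is *Tshr* f/f, against 49.4, 58.4 and 58.4 CPM where it is *Tshr* MKO, and the log2 difference was −0.07 (SE 0.103, edgeR adjusted p = 0.87). *Rel* was at 12.3, 18.2 and 15.6 CPM against 10.3, 14.3 and 9.84 CPM. Its ranges overlapped, and its log2 difference of −0.43 (SE 0.202, edgeR adjusted p = 0.507) was the largest among the liver subunits. *Nfkb1* (0.08), *Nfkb2* (−0.19) and *Relb* (0.04) had log2 fold changes near 0, with SE of 0.192, 0.185 and 0.335. *Relb* was measured from 51 to 116 counts per liver, so its liver values rest on few reads.

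Among the inhibitors in liver, *Nfkbia* was at 66.1, 60.9 and 37.9 CPM where the label is *Tshr* f/f, against 55.0, 64.1 and 49.9 CPM where it is *Tshr* MKO, and the log2 difference was 0.02 (SE 0.213, edgeR adjusted p = 0.986). *Nfkbib* (log2 fold change −0.13, SE 0.191) and *Nfkbie* (−0.22, SE 0.340) also had overlapping groups. *Nfkbiz* was at 54.2, 41.8 and 19.2 CPM against 22.6, 27.1 and 23.2 CPM, so the spread lay within the livers labelled *Tshr* f/f, whose lowest library was below all livers labelled *Tshr* MKO. Its log2 fold change was −0.68 (SE 0.353, edgeR adjusted p = 0.554). Among the livers labelled *Tshr* f/f the summed level of 10 neutrophil markers had the same order, at 146.8, 46.7 and 14.0 CPM in replicates 1, 2 and 3, and it was 15.0, 25.5 and 27.3 CPM in the other group. Of the 9 neutrophil markers tested, 9 had a negative log2 fold change and 2 were at an unadjusted p under 0.05. *Ly6g* was at or under 3 counts in all 6 livers. The 8 macrophage markers had another order, with sums of 180.6, 451.1 and 307.4 CPM under the *Tshr* f/f label and 221.0, 423.7 and 177.1 CPM in the other group. Of these 8, 7 had a negative log2 fold change and 0 were at an unadjusted p under 0.05. Under the *Tshr* f/f label *Nfkb1*, *Nfkb2*, *Rel*, *Relb* and *Nfkbie* were also lowest in replicate 1 and highest in replicate 2, as were endothelial and stellate cell marker sums. The part of any cell type in these levels was not tested. *Bcl3* was at 66.9, 32.8 and 45.8 CPM against 23.5, 32 and 56.4 CPM, with no separation between the groups (log2 fold change −0.39, SE 0.395, edgeR adjusted p = 0.784).

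Whether the genotype difference itself differed between BMDM and liver was tested in a fit of all 12 libraries. The difference of the log2 fold changes (BMDM minus liver) was below 0 for all 10 genes with the livers as labelled, from −0.52 for *Rel* to −2.50 for *Nfkbiz*, and 8 of the 10 (not *Rel* or *Bcl3*) were at an unadjusted p under 0.05, against 7.42% of 17246 genes. None was at an adjusted p under 0.05 (0.272 to 0.767, edgeR). The count of 8 was 3 without *Tshr* f/f BMDM replicate 3, where *Rel* turned to 0.33, and it was 3 to 5 without *Tshr* MKO BMDM replicate 1 or 2, or the liver labelled *Tshr* MKO replicate 2, *Tshr* f/f replicate 1 or *Tshr* f/f replicate 3. In these fits 895 to 1160 of 17724 to 17830 genes were lower at an unadjusted p under 0.05, against 1279 of 17246 with all libraries. Without *Tshr* f/f BMDM replicate 2, *Rela*, *Nfkbia* and *Nfkbib* were lower at an adjusted p under 0.05, against 1.49% of the 17699 genes of that fit. With the liver labels exchanged all 10 differences were again below 0, and 9 of the 10 (not *Rel*) were at an unadjusted p under 0.05, against 7.46% of all genes. They then ran from −1.22 for *Rela* to −3.82 for *Nfkbiz*, with *Rel* at −1.35 and *Bcl3* at −1.61 in place of −0.85, and none was at an adjusted p under 0.05 (0.228 to 0.369, edgeR), where 0.0058% of all genes were lower.

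Between tissues all subunits but *Rela* differed in both genotypes, as did the inhibitor *Nfkbie*. In *Tshr* f/f libraries 9 of the 10 genes, all but *Bcl3*, were higher in BMDMs than in liver at an adjusted p under 0.05, against 32.7% of the 17246 genes tested. In *Tshr* MKO libraries 5 of the 10 were higher (*Nfkb1*, *Nfkb2*, *Rel*, *Relb* and *Nfkbie*), against 31.8%. Tissue, culture, TSH, diet and insulin differ together in this comparison and cannot be told apart. *Relb* and *Nfkbie* differed most, with log2 fold changes of 4.74 (SE 0.476, edgeR adjusted p = 7.82e-06) and 4.81 (SE 0.534, edgeR adjusted p = 1.65e-05) in *Tshr* f/f libraries, or 26.7-fold and 28.1-fold. In *Tshr* MKO libraries they were 9.50-fold and 8.25-fold higher, with log2 fold changes of 3.25 (SE 0.447, edgeR adjusted p = 8.21e-05) and 3.04 (SE 0.497, edgeR adjusted p = 0.000281). *Nfkb2* was 16.1-fold higher in *Tshr* f/f and 4.33-fold higher in *Tshr* MKO BMDMs than in liver, *Nfkb1* 9.70-fold and 2.60-fold, and *Rel* 7.48-fold and 5.23-fold. The *Nfkb1* call in *Tshr* MKO libraries was lost on leaving out BMDM replicate 1 or 3 or any of the livers labelled *Tshr* MKO (edgeR adjusted p of up to 0.0939). With the liver labels exchanged the counts were again 9 and 5, against 33.1% and 31.4% of all genes.

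*Rela* had the smallest tissue difference of the subunits. It was 2.05-fold higher in *Tshr* f/f BMDMs than in liver (log2 1.04, SE 0.304, edgeR adjusted p = 0.0106) and stood at −0.07 on the log2 scale (SE 0.301, edgeR adjusted p = 0.849) in *Tshr* MKO libraries. *Nfkbib*, whose BMDM and liver levels overlapped in *Tshr* f/f libraries, passed there and not in *Tshr* MKO libraries, with 1.59 (SE 0.458, edgeR adjusted p = 0.00973) and −0.14 (SE 0.449, edgeR adjusted p = 0.799) on the log2 scale. *Nfkbia* and *Nfkbiz* were higher in *Tshr* f/f BMDMs by 2.49 and 3.23 on the log2 scale (edgeR adjusted p = 0.00075 and 0.00324) and did not pass in *Tshr* MKO libraries (0.85 and 0.73, edgeR adjusted p = 0.112 and 0.382). *Bcl3* had no higher level in BMDMs, at −0.15 (SE 0.479, edgeR adjusted p = 0.795) and −0.999 (SE 0.485, edgeR adjusted p = 0.0894), and with the liver labels exchanged at 0.23 (SE 0.480, edgeR adjusted p = 0.684) and −1.38 (SE 0.489, edgeR adjusted p = 0.0277). These values depend on the scaling between tissues, since without TMM factors the median over all genes moved from −0.03 to 0.787 in *Tshr* f/f and from −0.07 to 0.895 in *Tshr* MKO libraries. *Rela* and *Nfkbib* then read 0.89 and 0.83 in *Tshr* MKO libraries, under that median, and *Bcl3* 0.58 in *Tshr* f/f libraries.

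**Figure D3:**
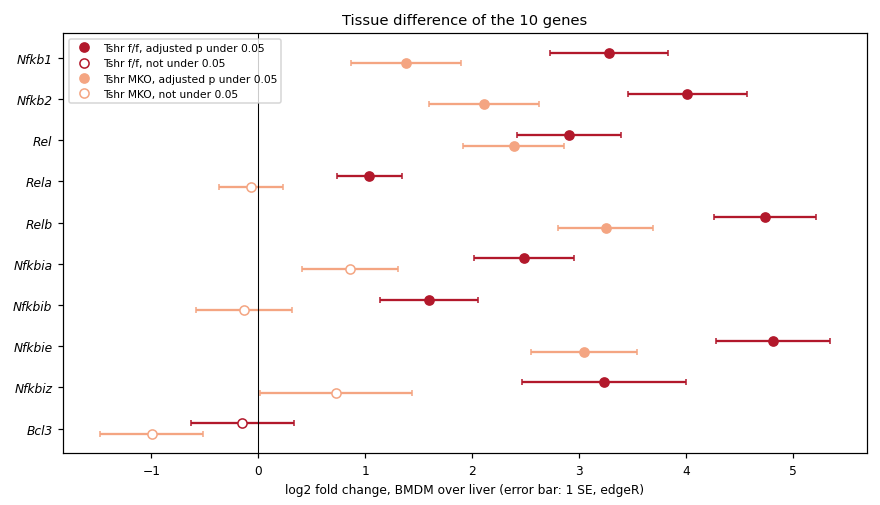
Log2 fold change of BMDM over liver for the 10 genes, with error bars of 1 SE (edgeR), in *Tshr* f/f libraries (dark red) and *Tshr* MKO libraries (light red); filled points are at an adjusted p under 0.05. All but *Bcl3* are filled in *Tshr* f/f libraries, 5 are filled in *Tshr* MKO libraries, and *Relb* and *Nfkbie* lie farthest to the right.

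Per kilobase of summed exon length, *Nfkbia* was the highest of the 10 genes in every group, at 191 ± 132 RPKM in *Tshr* f/f BMDMs, 63.3 ± 14.8 in *Tshr* MKO BMDMs, 34.1 ± 9.32 in liver under the *Tshr* f/f label and 35.0 ± 4.45 under the *Tshr* MKO label (mean ± SD, n = 3). It was above the next gene in all 3 libraries of each group. In *Tshr* f/f BMDMs *Nfkbiz* (71.8 ± 81.0 RPKM) and *Nfkb2* (59.2 ± 52.1) came next by their means, but *Nfkbiz* was above *Nfkb2* in only 1 of the 3 libraries. *Nfkbie* (39.2 ± 23.5), *Rela* (38.5 ± 19.5) and *Nfkbib* (36.8 ± 29.0) had means well within their spread, and *Nfkbib* was above *Nfkb1* in all 3 libraries. *Nfkb1* (33.9 ± 30.6), *Relb* (20.9 ± 12.4), *Bcl3* (17.7 ± 10.3) and *Rel* (15.4 ± 11.9) closed the order, with *Nfkb1* above *Relb* and *Bcl3* above *Rel* in all 3 libraries.

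In *Tshr* MKO BMDMs the order after *Nfkbia* was *Rela* (17.2 ± 2.61 RPKM), *Nfkb2* (14.0 ± 2.94) and *Nfkbib* (10.2 ± 0.902), and each of these was above the next in at least 2 of 3 libraries. *Nfkbie* (10.0 ± 3.57), *Nfkb1* (9.67 ± 1.49), *Rel* (8.05 ± 2.54), *Nfkbiz* (8.02 ± 3.20), *Relb* (7.72 ± 1.32) and *Bcl3* (7.53 ± 3.56) lay within their spread of the next, although *Nfkb1* was above *Rel* in all 3 libraries. *Nfkbiz*, which had the next highest mean to *Nfkbia* in *Tshr* f/f BMDMs, was thus among the lowest here. Livers had another order, in which *Bcl3* (19.6 ± 6.94 RPKM) and *Rela* (18.8 ± 0.581) followed *Nfkbia* in those labelled *Tshr* f/f and *Rela* (18.04 ± 1.70) and *Bcl3* (15.1 ± 6.92) in those labelled *Tshr* MKO, where the gene with the higher mean was above the other in 2 of 3 libraries. *Nfkbib* (12.2 ± 3.30 and 11.3 ± 0.243 RPKM) and *Nfkbiz* (7.65 ± 3.54 and 4.85 ± 0.491) came next, and *Nfkb1* and *Nfkb2* lay between 2.70 and 4.43 RPKM in all livers. *Rel* (2.05 and 1.54 RPKM on average), *Nfkbie* (1.39 and 1.21) and *Relb* (0.777 and 0.808) were the lowest in that order, each above the next in all 3 libraries of both groups.

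The make-up of the subunit mRNA followed the tissue. *Rela* took 60.3 to 71.5% of the summed RPKM of the 5 subunits in livers labelled *Tshr* f/f and 63.5 to 69.2% in livers labelled *Tshr* MKO, but 19.0 to 29.6% in *Tshr* f/f and 29.1 to 31.7% in *Tshr* MKO BMDMs. *Relb* took 2.19 to 3.61% in all 6 livers and 10.98 to 15.6% in the 6 BMDM libraries. Within BMDMs the shares of *Nfkb2* and *Rel* did not overlap between genotypes. *Nfkb2* took 29.8, 31.1 and 38.4% in *Tshr* f/f and 24.1, 24.7 and 25.2% in *Tshr* MKO BMDMs, and *Rel* 8.05, 10.3 and 9.38% against 12.8, 13.4 and 15.9%. With 3 libraries a group an exact permutation test cannot go below p = 0.1, so the shares were not tested.

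**Figure D4:**
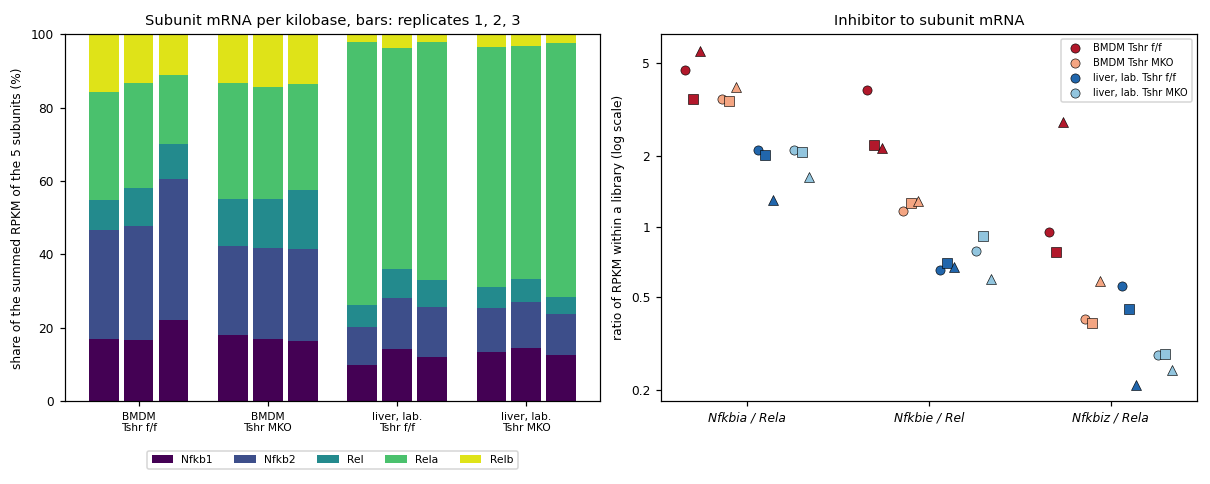
Left, share of each subunit gene in the summed RPKM of the 5 subunits (%), with a bar per library in the order of replicates 1, 2 and 3; right, RPKM ratios (log axis) of an inhibitor to a subunit, with a point per library; "lab." means as labelled. *Rela* takes over 60% in every liver and under 32% in every BMDM library, and the *Nfkbie* to *Rel* ratio is 2.17 to 3.84 in *Tshr* f/f and 1.16 to 1.29 in *Tshr* MKO BMDMs.

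The ratio of inhibitor to subunit mRNA varied less than their levels across the 12 libraries. The summed RPKM of the 5 subunits ranged from 24.6 in a liver to 308.9 in *Tshr* f/f BMDM replicate 3, while the 3 classical inhibitors summed to 1.26 to 2.15 times the subunits in liver and 1.43 to 1.91 times in BMDMs. In BMDMs this ratio was 1.91, 1.43 and 1.50 in *Tshr* f/f and 1.44, 1.45 and 1.53 in *Tshr* MKO libraries, and the groups overlapped. *Nfkbia* made up 66.2 to 77.3% of the inhibitor sum in all libraries. *Nfkbie* made up 10.3 to 16.2% in BMDMs and 1.84 to 3.91% in liver, where *Nfkbib* made up 20.1 to 29.9%.

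Ratios were also taken for single pairs. The *Nfkbie* to *Rel* ratio, of the IκB that is known to bind c-REL dimers, was 3.84, 2.24 and 2.17 in the *Tshr* f/f libraries of BMDMs, against 1.16, 1.26 and 1.29 in the *Tshr* MKO libraries. Every *Tshr* f/f library was above every *Tshr* MKO library, also without replicate 3. The *Nfkbiz* to *Rela* ratio was 0.949, 0.779 and 2.81 against 0.400, 0.385 and 0.582, again without overlap. Nor did the groups overlap in the *Nfkb2* to *Relb* ratio (1.91, 2.35 and 3.50 against 1.81, 1.73 and 1.88). The *Nfkb1* to *Rela* ratio was only just apart, at 0.576, 0.584 and 1.17 against 0.574, 0.553 and 0.560. How often pairs among all genes are apart in this way was not counted. The *Nfkbia* to *Rela* ratio was 4.67, 3.51 and 5.65 against 3.50, 3.47 and 3.98, where *Tshr* f/f replicate 2 was within the *Tshr* MKO range, and it was between 1.29 and 2.12 in all livers. The *Relb* to *Rela* ratio, 0.463 to 0.578 in *Tshr* f/f and 0.420 to 0.465 in *Tshr* MKO BMDMs, was 0.0306 to 0.0600 in liver.

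The other genes of the pathway were followed in 4 lists. These were chosen with earlier results of these data known, so their counts describe the lists and do not test them. Of 24 genes of the IKK complex and its adaptors, 6 were lower and 0 higher in the *Tshr* MKO libraries of BMDMs (unadjusted p under 0.05), with a median log2 fold change of −0.24 against 0.01 over all genes tested, of which 10.2% were lower and 7.73% higher. Of the list, 0 passed at an adjusted p under 0.05 (lowest edgeR adjusted p = 0.218). The decoy kinase *Irak3*, a brake on Toll-like receptor signaling, was at 99.99, 145 and 296 CPM in the *Tshr* f/f libraries, against 38.7, 37.4 and 59.7 CPM in the *Tshr* MKO libraries. The paracaspase *Malt1*, which joins immune receptors to IKK, was at 407, 150.2 and 1543 CPM against 47.6, 47.3 and 98.3 CPM, with a log2 difference of −3.45 (SE 0.893, edgeR adjusted p = 0.218), and the adaptor *Traf2* had a log2 difference of −0.88 (SE 0.221, edgeR adjusted p = 0.218). Of 11 genes of the alternative pathway, 6 were lower and 1 higher at an unadjusted p under 0.05 (median −0.67). Its receptor *Cd40* was at 126, 17.2 and 337 CPM against 15.6, 18.3 and 18.8 CPM, overlapping between the groups, and the ubiquitin ligases *Birc2* and *Birc3* had log2 fold changes of −0.86 (SE 0.227) and −1.67 (SE 0.487).

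Of 22 genes listed as other brakes on NF-κB, 9 were lower and 2 higher at an unadjusted p under 0.05 (median −0.56). *Tnip1*, a partner of the deubiquitinase A20, was at 206, 124 and 765 CPM in the *Tshr* f/f libraries, against 58.9, 61.3 and 64.0 CPM in the *Tshr* MKO libraries. *N4bp1*, an inhibitor of NF-κB signaling, had a log2 difference of −1.06 (SE 0.247, edgeR adjusted p = 0.218). *Nlrc3*, a negative regulator of Toll-like receptor signaling, went the other way, at 7.99, 4.87 and 2.71 CPM against 18, 15.1 and 11.4 CPM (log2 fold change 1.50, SE 0.404, edgeR adjusted p = 0.218). In the lists of the alternative pathway, the brakes and the targets, 0 genes passed at an adjusted p under 0.05 (lowest edgeR adjusted p = 0.218). Over all genes tested 10.2% were lower and 7.73% higher at an unadjusted p under 0.05. Of 36 known NF-κB target genes, 31 were lower and 0 higher by that rule, with a median log2 fold change of −3.51. The 3 with the lowest p were *Nos2*, the inducible nitric oxide synthase (304, 341 and 4824 CPM against 1.80, 2.31 and 8.68 CPM), the siderophore-binding *Lcn2* (16.6, 204.5 and 662 CPM against 3.38, 1.98 and 2.17 CPM) and the acute-phase gene *Saa3* (1972, 5015 and 11100 CPM against 549.6, 312 and 833 CPM). Without *Tshr* f/f replicate 3 the median of the targets was −1.90 with 23 of 36 lower, and the medians of the other lists were −0.10, −0.49 and −0.19 with 4 of 24, 4 of 11 and 7 of 22 lower and 2, 1 and 3 higher. In that fit 7.40% of all genes were lower and 7.85% higher.

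In liver, 4 of 24 IKK complex genes, 0 of 10 alternative pathway genes, 3 of 20 brakes and 3 of 29 targets tested were lower where the label is *Tshr* MKO (unadjusted p under 0.05), and 0, 0, 1 and 2 were higher. Of all genes tested 5.18% were lower and 5.27% higher. The medians were −0.09, −0.11, −0.08 and −0.12, against −0.01 over all genes tested, and none passed at an adjusted p under 0.05. The 3 named of each list were *Ripk1* (log2 fold change −0.33), *Irak2* (−0.55) and *Tab2* (−0.37), which act upstream of IKK, then *Tnfrsf11a* (−0.99), *Tbk1* (−0.21) and *Birc3* (−0.44). From the list of brakes they were *Zc3h12a* (−0.88), *Commd1* (0.43) and *Sqstm1* (−0.43), and from the targets *Il1a* (1.08), *Icam1* (−0.35) and *Cxcl10* (1.10). *Zc3h12a*, the gene of the RNase regnase-1, was at 23.9, 15.4 and 11.7 CPM against 8.88, 8.85 and 10.3 CPM, without overlap.

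The 5 genes with the profile most like that of the members over the 6 BMDM libraries were *Fzd1*, *Rhbdf2*, *Mefv*, *Cemip2* and *Tnfaip2*, by the root mean square difference of the centred log2 CPM from the mean profile of the 10 genes (0.0627, 0.0860, 0.0977, 0.117 and 0.126). The mean profile itself stood at 0.62, −0.30 and 1.88 in *Tshr* f/f and at −0.90, −0.95 and −0.36 in *Tshr* MKO BMDMs. *Fzd1*, a Wnt receptor, was at 51.9, 30.3 and 129.9 CPM against 19.4, 17.96 and 26.4 CPM, and *Mefv*, which encodes pyrin, at 106.5, 59.2 and 243 CPM against 34.6, 32.5 and 59.5 CPM. By Pearson distance none of the 5 genes nearest to the members was among these 5, and without *Tshr* f/f replicate 3 the number shared was 2.

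Some counts could include reads of other genes, since the libraries were strand-specific but whether counting used the strand is not given in the sources used here. *Nfkb2* shares 531 exon bases with the antisense gene *AC114539.1*, which had up to 335 counts in a BMDM library, and also overlaps *Psd*. *Nfkbib* shares 42 exon bases with *Sirt2*, which had up to 5343 counts, and 314 with *Ccer2*, which had 0. *Bcl3* shares 161 with *Gm16175*, which had 0 counts.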

How the data were processed

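Per the labels and the methods, mRNA of 6 BMDM and 6 liver samples was read from strand-specific TruSeq libraries on a NovaSeq instrument. The authors deposited raw read counts per gene, not normalized. Skewer and FastQC 0.11.2 handled the reads, and the submitters' processing notes name mm10, STAR and StringTie without their roles. The annotation release and the counting program are not given in the sources used here. Of 55335 gene IDs, 55154 are in GENCODE M21 (GRCm38), from which exon lengths were taken.

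The quasi-likelihood test of edgeR 4.0.16 (R 4.3.3) was run with TMM factors, robust dispersion and the filterByExpr filter, and p-values were adjusted after Benjamini–Hochberg across each fit, separately in BMDMs and liver and in a fit of 12 libraries for the tissue comparisons and the difference of genotype differences. Each SE was obtained by dividing the log2 fold change by the root of its F statistic. The study used DEGseq, which takes no spread between replicates, and only its thresholds were kept. DESeq2 1.42.0, other scalings, filters, a replicate block, leaving out each library and, added later, exchanged liver labels were alternatives. The fits were tested on simulated data. Figures were drawn with matplotlib 3.10.9 in python 3.11.15.

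The 10 genes and all lists were chosen with earlier results of these data known. All 10 genes were named, with the 3 of each pathway list with the lowest unadjusted p in each genotype fit and the 5 most like the members in BMDMs. With 28962878 to 40954211 counts per library, 3 counts are 0.0733 to 0.104 CPM. The numbers of replicates were not taken to pair the samples in the main fits.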

Additional observations from a re-analysis of the deposited data

How the results depend on the processing

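The count of the 10 genes lower in BMDMs of *Tshr* MKO mice (9, unadjusted p under 0.05) was 3 to 10 with a library left out, and the corresponding count for the BMDM minus liver difference (8) was 3 to 8. Over all genes tested the first count was then 731 to 2299 (1567 with all libraries) and the second 895 to 1859 (1279). In liver the count of the 10 genes (0) was 0 to 1 with a library left out, 1 with DESeq2 (*Nfkbiz*) and 1 with the replicate block (*Rel*). Over all genes tested it was 531 to 1158, 880 and 625, against 780 in the main fit. Same-numbered libraries correlated at 0.136, 0.0273 and 0.113 in BMDMs and at −0.0655, 0.252 and −0.0291 in liver (deviations from the group means). The other pairs ran from −0.205 to 0.163 in BMDMs and from −0.343 to 0.352 in liver. Deviations from a mean of 3 libraries cannot decide whether the numbers pair the samples, and the main fits did not pair them. With the replicate block the other counts were 9 in BMDMs, 8 for the difference and 9 and 6 for the tissues. Over all genes they were 1337 of 15372, and 1085, 5353 and 5315 of 17246. The tissue count was 9 in *Tshr* f/f with any library left out, where 5235 to 5687 of all genes were higher. In *Tshr* MKO (5) it was 4 to 6, where 4971 to 5954 of all genes were higher. Without TMM factors it was 9 in *Tshr* MKO, where 8980 of 17246 genes were higher, against 5476 with them. Without TMM factors the summed RPKM of the 10 genes was 224 in *Tshr* MKO BMDMs (156 with them) and 75.3 and 70.1 in livers labelled *Tshr* f/f and *Tshr* MKO (104 and 94.7).

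All 10 genes kept their direction in BMDMs in every alternative run. With a library left out the log2 fold change crossed 0 in liver for *Nfkb1* (−0.077 to 0.27), *Rela* (−0.13 to 0.0096), *Relb* (−0.11 to 0.40), *Nfkbia* (−0.20 to 0.18) and *Nfkbib* (−0.26 to 0.12), for *Rel* in the difference (−0.86 to 0.33), for *Bcl3* between *Tshr* f/f tissues (−0.71 to 0.16) and for *Rela* between *Tshr* MKO tissues (−0.19 to 0.028). Without TMM factors *Bcl3* turned to 0.58 in *Tshr* f/f, and *Rela* and *Nfkbib* to 0.89 and 0.83 in *Tshr* MKO. With upper-quartile factors the last pair turned to 0.14 and 0.070, and *Rela* to 0.053 without a filter. With the liver labels exchanged, chosen after seeing the data, *Bcl3* turned to 0.23 between *Tshr* f/f tissues. The cause was not tested.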
